A study of Mus musculus with 9 samples.

Results

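The centromere-near ends of the mouse autosomes were taken as the CpG positions on chromosomes 1 to 19 with bases above 3000000 and up to 8000000 of build mm9. A position was used where it had 10 or more reads in each of 5 methylation tables and where its coverage in Dnmt TKO cells was at least 0.5 times that in cells with wild-type Dnmt3a2. This gave 29974 positions in 5364 tiles of 1 kb, of 887695 autosomal and 909143 nuclear positions that met the same coverage conditions. A position is 1 CpG read on 1 strand, so both strands of a CpG can count.

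Mouse chromosomes carry the centromere at one end. Next to it lie long arrays of satellite repeats packed in heterochromatin, which are normally among the most methylated DNA of a mouse cell, and which genome assemblies leave as a gap. The positions used here lie after that gap, in the first assembled bases, and the satellite arrays themselves were not analysed here. Dnmt3a is a de novo DNA methyltransferase, and its ADD domain binds the tip of the histone H3 tail. In mitosis a threonine in that tip is phosphorylated mainly at centromeres. The title of the series names chromosomal stability and an engineered histone-recognition domain, and the question asked here was whether R differed from WT next to the centromere.

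Reduced representation bisulfite sequencing (RRBS) reads CpGs near the cut sites of MspI, an enzyme that cuts CCGG, so it samples CpG-rich DNA more fully than the rest. The 9 samples, at passages 7 to 10, were all J1 mouse embryonic stem cells, a pluripotent line, of the Dnmt TKO background, which lacks the active DNA methyltransferases. The group TKO (1 sample) had no construct, WT (2 samples) had wild-type Dnmt3a2, the shorter isoform of Dnmt3a, WWD and R (2 samples each) had mutant constructs so labelled, and C (2 samples) has no construct named in its labels. The labels give 1 table per group, called a pool here, although whether a table joins both samples is not stated. The spread between replicates cannot be read from these tables, and how many cells carried a construct, or how much of it, was not measured here.

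The tables held 133646344 nuclear read calls for TKO, 145515596 for C, 195652302 for WT, 148793316 for WWD and 210131898 for R. At the near-end positions the median coverage was 134, 121, 138, 138 and 160 reads in the same order, against 135, 121, 138, 139 and 161 in the rest of the autosomes. Of the near-end positions covered in all 5 pools, 70.8% met the coverage ratio, against 71.7% in the rest. Just inside the ratio limit, from 0.5 to 0.6, 1567 near-end positions held 10.1% in WT, and just outside, from 0.4 to 0.5, 981 held 9.43%. Across the outer border, WT held 12.2% from 7 to 8 Mb and 12.3% from 8 to 9 Mb.

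Wild-type Dnmt3a2 left the centromere-near ends partly methylated, R left them at a slightly higher level, WWD far below both, and TKO and C were close to unmethylated. The mean level over the 29974 positions was 11.7% ± 0.0311 in WT and 12.01% ± 0.0278 in R. WWD held 2.96% ± 0.0171, C 0.256% ± 0.00616 and TKO 0.169% ± 0.00528. The errors are 95% limits of counting error, with reads taken as independent. A read can cover several CpGs, and PCR copies cannot be told apart here, so these limits are too narrow. WT and R were far from the other pools on every autosome, and WT and R were near each other.

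Methylation within the ends was uneven from CpG to CpG. In WT 45.1% of the positions had no methylated read, 23.8% were above 20%, 6.33% were above 50% and 69 positions were above 80%. R had 43.6% with no methylated read, 23.8% above 20%, 6.99% above 50% and 98 positions above 80%. The positions above 80% were 0.230% of the members in WT and 0.327% in R. In the rest of the autosomes these shares were 0.282% and 0.398%, and 42.5% in WT and 41.1% in R had no methylated read. The higher share above 80% in R was thus not particular to the near ends. In WWD 3.49% of the positions were above 20% and 0 were above 80%. The highest single position held 21.4% in TKO and 30% in C.

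**Figure D1:**
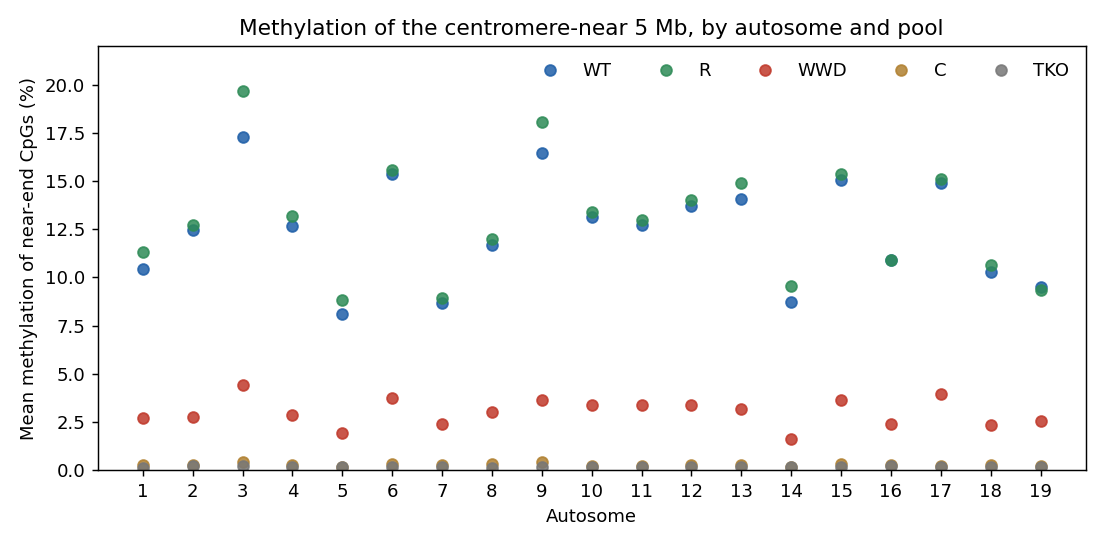
Mean methylation in percent (vertical axis) of the centromere-near CpG positions of each autosome (horizontal axis), 1 point per pool. WT lies between 8.09% and 17.3%, R follows it closely, WWD lies between 1.63% and 4.44%, and C and TKO lie near 0.

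The near ends differed among themselves more than WT differed from R. WT was highest on chromosome 3, at 17.3%, followed by chromosomes 9 (16.4%), 6 (15.3%), 15 (15.0%), 17 (14.9%) and 13 (14.1%). Chromosomes 12 (13.7%), 10 (13.1%), 11 (12.7%), 4 (12.7%), 2 (12.4%) and 8 (11.7%) came next. The lowest levels in WT were on chromosomes 16 (10.9%), 1 (10.5%), 18 (10.3%), 19 (9.52%), 14 (8.74%), 7 (8.68%) and 5 (8.09%). The mean of the 19 chromosome values was 12.4% ± 2.71 in WT and 13.0% ± 3.02 in R (SD over chromosomes, which are not replicates of a condition). The number of positions ranged from 59 on chromosome 14 to 7025 on chromosome 19, which alone gave 23.4% of all members. In RefSeq's gene order for GRCm38, the genes that open chromosome 19 include Cpt1a, a mitochondrial enzyme of fatty acid oxidation, and those that open chromosome 12 include Dnmt3a itself. That build differs from mm9, so no position was assigned to a gene.

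Levels differed with CpG density, measured as the number of WT rows in the same 1 kb tile. Density alone did not order the chromosomes: the members of chromosome 3 had a median of 6 rows and those of chromosome 14 a median of 4, and chromosomes 12 and 5, at 13.7% and 8.09% in WT, both had 36. In tiles with 1 to 4 rows, WT held 26.9% in the near ends, with 24.8%, 16.6%, 3.74% and 0.498% in tiles with 5 to 9, 10 to 19, 20 to 39 and 40 or more. R had 27.2%, 25.3%, 17.2%, 3.91% and 0.567% in the same order, and WWD had 5.67%, 6.10%, 4.76%, 1.38% and 0.353%. WT thus held little methylation in the densest tiles, which made up 37.0% of the members.

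Set against the rest of the same chromosome at the same number of WT rows, the near ends held slightly less methylation in WT, R and WWD and the same in C and TKO to within counting error. A match of 20 or more positions was found for 28977 members. These held 12.1% in WT where the matched rest held 13.2%, a difference of -1.09 points. In R they held 12.4% against 13.3%, a difference of -0.900 points, and in WWD 3.05% against 3.44%, a difference of -0.384 points. As a share of the matched rest, the near ends had 91.7% of the level in WT, 93.2% in R and 88.8% in WWD. C held 0.260% against 0.259%, and TKO 0.171% against 0.169%. These differences exceed the counting error in WT, R and WWD. That error covers the reads at the near-end positions only, and not the matched rest or the spread between CpGs or regions. With 1 table per group no test against replicate spread can be made.

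The lower level was not uniform over the chromosomes. WT was lower than its matched rest on 16 of 19 autosomes, R on 15 and WWD on 16. In WT chromosome 8 differed by -4.95 points, chromosome 9 by -4.39, chromosome 5 by -4.16 and chromosome 7 by -4.04. Chromosome 14 differed by -17.4 points, but over 59 positions only. The near ends of chromosomes 12 (2.93 points), 11 (0.845 points) and 17 (0.783 points) held more than their matched rest in WT, and the same 3 did so in R and in WWD. On chromosome 12 several neighbouring tiles were highly methylated in WT, up to 66.3% in the tile from 5066001 to 5067000. The value of chromosome 12 was not computed without these tiles, so it may reflect this short stretch and not the whole end. With each chromosome weighted equally the WT difference was -2.47 points, with an SD of 4.16 over chromosomes, so the spread between chromosomes was larger than the mean difference. Without chromosome 14 it was -1.64 points with an SD of 2.10, a setting chosen after these values were seen.

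**Figure D2:**
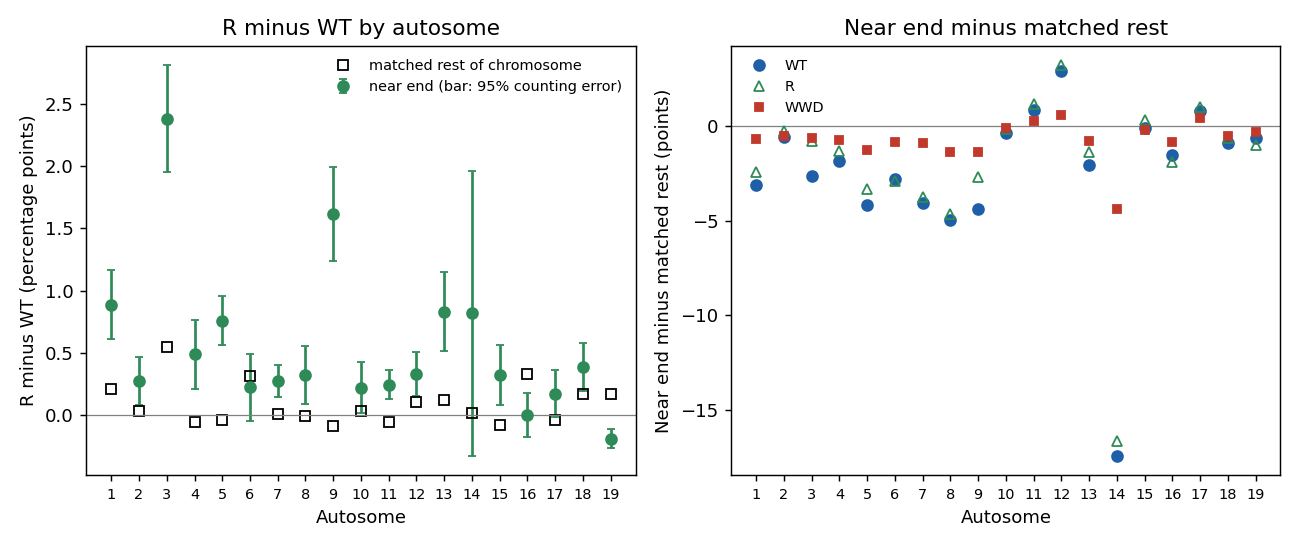
Left, R minus WT in percentage points for the near end of each autosome (filled points, bars give 95% counting error) and for the matched rest of that autosome (open squares): R is above WT on 17 of 19 near ends. Right, near end minus matched rest in points for WT, R and WWD: the 3 pools move together, and chromosomes 11, 12 and 17 lie above 0 in all of them.

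R was slightly more methylated than WT at the centromere-near ends. Over all members R minus WT was 0.268 points ± 0.0418 (95% counting error). Over the members with a match it was 0.278 points, where the matched rest gave 0.0832 points, an excess of 0.195. Over all commonly covered near-end positions, whatever their coverage ratio, R minus WT was 0.789 points and its excess over the matched rest 0.117, and with reads pooled over positions R minus WT was 0.525 points. R was above WT on 17 of 19 near ends and, in the matched rest, on 12 of 19 autosomes. The near-end difference was above that of the matched rest on 16 of 19 autosomes, the exceptions being chromosomes 6, 16 and 19.

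The R minus WT difference was largest on the near ends of chromosomes 3 (2.38 points) and 9 (1.62 points), both with few positions and sparse CpGs. Chromosomes 1 (0.886), 13 (0.830), 14 (0.816) and 5 (0.759) followed, then 4 (0.488), 18 (0.388), 12 (0.332), 8 (0.320) and 15 (0.319), all in points. Smaller differences were found on chromosomes 7 (0.275), 2 (0.274), 11 (0.244), 6 (0.221), 10 (0.220) and 17 (0.172). Chromosome 16 was level, at -0.000941 points, and chromosome 19 was lower in R, at -0.192 points ± 0.0749. On 14 of the 17 higher ends the difference was larger than its counting error. The mean of the 19 values was 0.545 points with an SD of 0.598. Because chromosome 19 holds so many members, it lowers the pooled value: without it R minus WT was 0.409 points, and 0.361 points above the matched rest, a setting chosen after these values were seen.

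**Figure D3:**
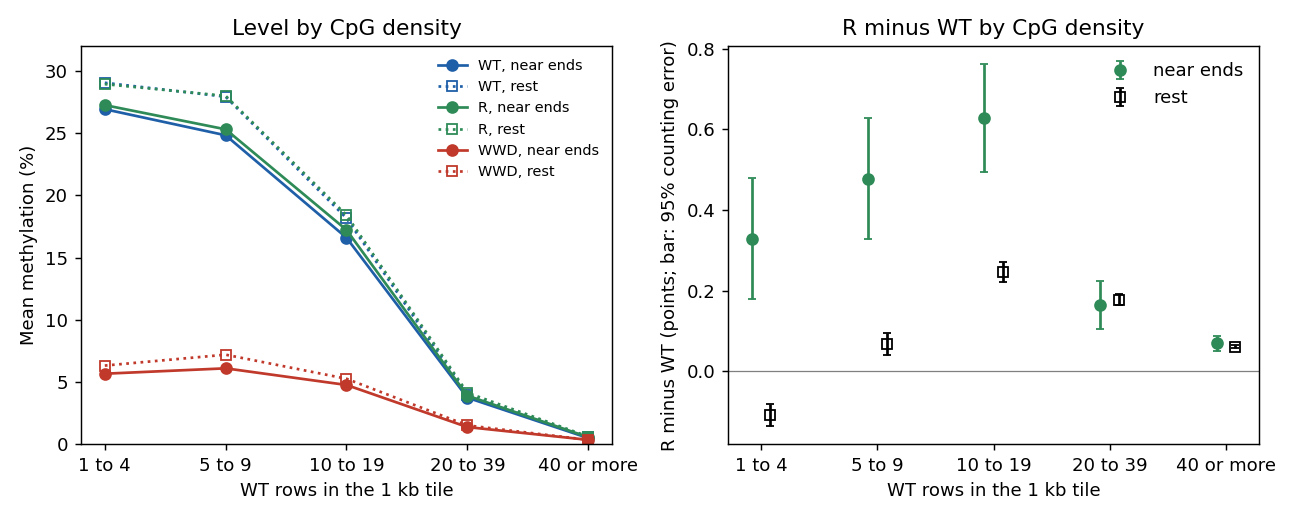
Left, mean methylation in percent by number of WT rows in the 1 kb tile for near ends (filled) and rest (open) in WT, R and WWD. The rest is not matched on chromosome. Right, R minus WT in points with 95% counting error: near ends lie above the rest in the 3 sparser classes (0.329, 0.477 and 0.629 points against -0.108, 0.0674 and 0.246) and close to it in the 2 denser ones.

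R was above WT beyond counting error in every density class of the near ends, and R minus WT exceeded that of the rest in the 3 sparser ones. The rest is here every other autosomal position of the class, not matched on chromosome, so chromosome make-up and location are not separated. It was 0.329 points ± 0.150 in near-end tiles with 1 to 4 rows, where the rest had -0.108 points, and 0.477 points ± 0.150 with 5 to 9 rows, where the rest had 0.0674. With 10 to 19 rows it was 0.629 points ± 0.134 against 0.246. In tiles with 20 to 39 rows the near ends had 0.164 points ± 0.0587 and the rest 0.178, and in the densest tiles they had 0.0692 points ± 0.0185 and the rest 0.0609. In these 2 classes near ends and rest were not separated beyond counting error.

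Neither the lower WT level nor the excess of R was confined to the first 5 Mb. In windows of 5 Mb along all 19 autosomes, each against the rest of its chromosome, WT minus matched rest was -1.09 points from 3 to 8 Mb. It was -1.01 from 8 to 13 Mb, -1.53 from 13 to 18 Mb and -1.95 from 18 to 23 Mb. From 23 to 58 Mb the windows lay between -0.668 and 0.186 points. R minus WT was 0.268 points in the near ends, and 0.341, 0.421 and 0.343 points in the next 3 windows. From 23 to 58 Mb it lay between -0.0106 and 0.282 points. R was above WT on 16 of 19 chromosomes from 8 to 13 Mb and on 17 from 13 to 18 Mb and from 38 to 43 Mb, as many as the 17 of the near ends. WT minus matched rest was thus lower in each window of the first 20 Mb used here than in any later one, though it varied among them. With each position counted once, R minus WT of the near ends was below the largest later value, 0.282 points from 38 to 43 Mb. With each chromosome weighted equally it was 0.545 points in the near ends and 0.493, 0.710 and 0.611 points in the next 3 windows. The value from 38 to 43 Mb was then 0.469 points, below that of the near ends. The near ends were not at the extreme of either measure.

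**Figure D4:**
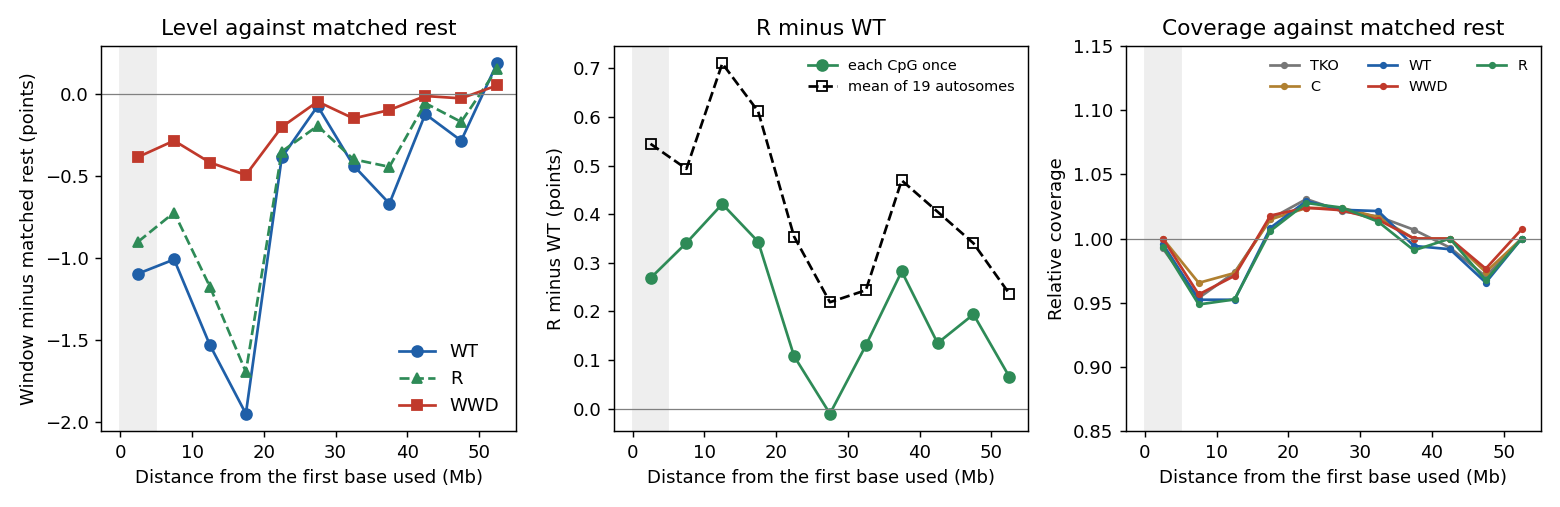
Windows of 5 Mb from the first base used (horizontal axis, distance in Mb, near ends shaded). The panels show window minus matched rest in points for WT, R and WWD, R minus WT in points, and relative coverage in the 5 pools. WT and R are lowest against the matched rest in the first 4 windows, and coverage stays between 0.949 and 1.03 of the matched rest. With each CpG counted once, R minus WT is highest from 8 to 23 Mb (0.341 to 0.421 points). As the mean of 19 autosomes (dashed) it is highest from 13 to 23 Mb (0.611 to 0.710 points), with 0.545 points in the near ends.

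Within the near ends neither the WT level nor R minus WT, with each position counted once, showed a steady gradient toward the centromere. From 3 to 4 Mb WT held 10.99%, and in the following steps of 1 Mb it held 10.1%, 12.9%, 13.2% and 12.2%. Against the matched rest beyond 8 Mb these steps differed by -1.98, -1.43, 0.537, -1.44 and -1.40 points. The step at 0.537 points includes the highly methylated neighbouring tiles of chromosome 12 and was not computed without them. R minus WT was 0.485, 0.200, 0.145, 0.117 and 0.464 points in the same order. With each chromosome weighted equally the steps gave 0.0373, 0.619, 0.531, 0.696 and 1.47 points. R minus WT was then lowest in the first step and highest in the last, so its order depended on the weighting.

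At the opposite, telomere-near ends (the last 5 Mb before the last covered base, 53547 positions) the direction was different. WT held 13.5%, 0.810 points above the matched rest, and was lower than it on 7 of 19 autosomes. R minus WT was -0.0795 points there, and R was above WT on 10 of 19. The difference between the ends was not tested, since each pool is 1 table.

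Called differences between R and WT at single positions were about as frequent in the near ends as in the matched rest. Methylated and unmethylated reads of each position were compared by Fisher's exact test (two-sided), adjusted by Benjamini-Hochberg over all nuclear positions of a comparison. A call needed 25 points or more between the pools and an adjusted p below 0.01. In R against WT, 22 members were called higher in R and 15 lower. That is 0.0734% and 0.05004% of the members, where 0.234% and 0.0438% of all nuclear positions tested were called in those directions, and 0.0687% and 0.0579% of the positions at the same coverage condition in the rest of the autosomes. Among the members with a match the shares were 0.0759% and 0.0518%, and in the matched rest 0.0684% and 0.0600%. Such a test compares the reads of 2 tables and not conditions, and at least 25 points is far above the mean difference.

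The 3 called rises of R with the largest difference were on chromosomes 10, 18 and 17. At base 3154729 of chromosome 10 (reverse strand) WT held 31.8% of 22 reads (Wilson 95% interval 16.4 to 52.7) and R 81.8% of 66 reads (70.9 to 89.3), with WWD at 21.2% (adjusted p = 0.00574, Fisher's exact test). At base 5165422 of chromosome 18 WT held 11.4% of 44 reads and R 53.7% of 95 reads. At base 7964815 of chromosome 17 WT held 25.3% of 87 reads and R 63.4% of 123 reads. TKO and C held 0% at all 3. The 3 largest called falls were at base 6164082 of chromosome 3, from 59.3% of 27 reads in WT to 6.38% of 47 in R, base 4294236 of chromosome 18, from 56.8% of 37 to 9.26% of 54, and base 4797010 of chromosome 7, from 51.0% of 49 to 15.3% of 72. WWD held 0%, 8.51% and 10.4% at these falls. Rises and falls of this size rested on fewer reads than the median member had.

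WWD held much less methylation than WT at the near ends. Its level was 25.2% of that of WT, and over the matched members 25.2% against 26.0% in their matched rest. Over all near-end positions covered in the 5 pools, whatever their coverage ratio, it was 41.7%. The share was lowest on chromosome 14, at 18.7% over 59 positions, next lowest on chromosome 16, at 21.998%, and highest on chromosome 7, at 27.7%. It was 21.1%, 24.6%, 28.7% and 36.9% in the near-end tiles of 1 to 4, 5 to 9, 10 to 19 and 20 to 39 rows, and 70.9% in the densest, where both levels were under 1%. In WWD against WT, 4564 members were called lower and 0 higher (Fisher's exact test as above). These lower calls are 15.2% of the members, against 13.4% of all nuclear positions tested. Among the members with a match they are 15.8%, against 17.6% in the matched rest. Higher calls were 0.461% of all nuclear positions and 0.0007% of those in the rest of the autosomes at the same coverage condition. At an adjusted p under 0.05, 1 member was called higher.

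WT against TKO called 5888 members higher in WT, 19.6% of them, against 22.5% of all nuclear positions tested. Among the members with a match the share was 20.3%, against 22.3% in the matched rest. No member was called lower in WT. Of all nuclear positions 0.064% were, but 0 of the 857721 positions at the same coverage condition in the rest of the autosomes. C against WT called 5886 members lower, 19.6%, against 24.4% of all nuclear positions tested. Among the members with a match the share was 20.3%, against 22.3% in the matched rest. No member was called higher in C, and neither was any of the 857721 in the rest, against 0.000904% of all nuclear positions. At an adjusted p under 0.05 there were likewise 0 members lower in WT than in TKO and 0 higher in C than in WT. A smaller share of the members with a match than of the matched rest was called in each of these comparisons, the same direction as in the mean levels.

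Of the near-end tiles, 1530 had at least 5 members, and tile means showed the same order of the pools. In WT 634 of these tiles were under 1% methylated (41.4%, against 36.3% in the rest of the autosomes). At 20% or more were 479 (31.3% against 36.2%), and at 50% or more 50, where the rest had 1599 of 41799 tiles. These tile shares were not matched on density. R was at least 10 points above WT in 18 tiles and at least 10 points below it in 4. That is 1.18% and 0.261% of the near-end tiles, where 0.965% and 0.826% of all autosomal tiles passed those limits, with no test. From 8 to 13 Mb, 21 of 1031 tiles were higher (2.04%, a larger share than in the near ends) and 4 lower (0.388%). From 13 to 18 Mb, 11 of 959 tiles were higher and 10 lower. The 18 tiles lay on 11 chromosomes and the 4 on 3, and they had medians of 717 and 318.5 WT read calls, where all near-end tiles had 1255.

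**Figure D5:**
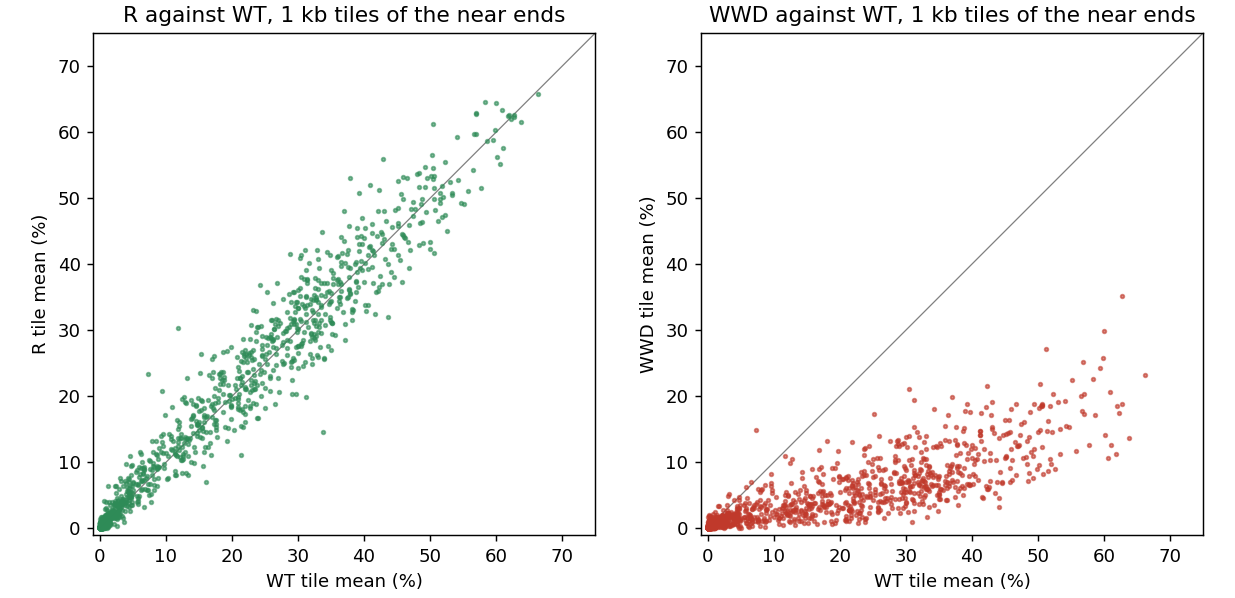
Tile means in percent of the 1530 near-end tiles, R (left) and WWD (right) against WT; the grey line marks equal levels. R tiles scatter around the line. Most WWD tiles lie below it where WT is methylated, with exceptions such as chromosome 11 from 5906001 (WT 7.28%, WWD 14.9%).

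The tiles below were chosen by their values and are described with no test. The most methylated in WT was on chromosome 12 from 5066001 to 5067000, with 66.3% in WT, 65.7% in R, 23.3% in WWD, 0.232% in C and 0.172% in TKO over 7 positions. Next came a tile of chromosome 17 from 7433001 to 7434000, with 63.8% in WT, 61.6% in R and 13.6% in WWD, and one of chromosome 11 from 6604001 to 6605000, with 62.8%, 62.6% and 35.1%. That last tile was also the most methylated in WWD, ahead of chromosome 6 from 5390001 to 5391000 (29.9% in WWD, 60.0% in WT) and chromosome 10 from 3192001 to 3193000 (27.2% and 51.2%). WWD therefore reached from 13.6% to 35.1% in the 3 tiles where WT was highest.

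R rose most above WT on chromosome 18 from 4199001 to 4200000, with 30.4% in R, 11.8% in WT and 10.9% in WWD over 6 positions, on 217, 156 and 207 read calls. On chromosome 11 from 5906001 to 5907000 R held 23.4%, WT 7.28% and WWD 14.9%, so here WT was the lowest of the 3, on 165 read calls. On chromosome 17 from 6911001 to 6912000 R held 53.1% and WT 37.9% as means over 5 positions, but 48.4% and 45.7% over summed reads, so most of that difference rested on how reads spread over the positions.

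R was lowest against WT on chromosome 7 from 3297001 to 3298000. This tile held 33.8% in WT, 14.7% in R and 8.07% in WWD over 7 positions, on 1103, 1464 and 1106 read calls. One of its positions, base 3297156 (reverse strand), was among the called falls, from 73.0% of 189 reads in WT (66.3 to 78.8) to 40.5% of 247 in R (34.6 to 46.7), with an adjusted p of 1.89e-07 by Fisher's exact test. It was described because it lies in a named tile, after its values were seen. The other low tiles were on chromosome 19 from 3614001 to 3615000, with 43.6% in WT and 32.1% in R, and in the tile of chromosome 9 from 6701001 to 6702000, with 31.2% and 19.8%. The tile on chromosome 7 differed from the other low tiles by its depth, which was above 1000 read calls in both pools.

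The highest tile mean in TKO was 2.91%, on chromosome 16 from 5133001 to 5134000. Means of 1.54% and 1.51% followed, in the tile of chromosome 11 from 3439001 to 3440000 and in that of chromosome 5 from 7857001 to 7858000. Over summed reads these were 1.14%, 0.418% and 0.809%. Tiles with fewer than 5 members were not averaged.

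With each position counted once, median coverage of the near ends was close to that of the matched rest, but it was lower on average by chromosome. The median member had 0.992 times the coverage of matched positions of its chromosome in TKO, and the value was 0.996 in WT, 0.994 in R and 1 in both C and WWD. By chromosome it reached from 0.830 (chromosome 13) to 1.08 (chromosome 19) in TKO and from 0.822 (chromosome 8) to 1.09 (chromosome 19) in WT. The low value of chromosome 8 goes with its other parts: against the other autosomes its near end had 1.05 times the coverage in TKO and 1.02 in WT, while the stretch from 10 to 95 Mb had 1.46 and 1.49. The medians over all near-end positions thus lay between 0.992 and 1 in the 5 pools.

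A few near-end positions were read far more deeply than the others. Of the members, 23 had 1000 or more reads in WT, in 8 tiles, and 16 of the 23 lay between 3 and 4 Mb. They were 0.0767% of the members with 4.10% of their WT reads, against 0.0533% of the positions and 3.78% of the WT reads in the rest. This limit was chosen after the values were seen. On chromosome 8, base 3754410 (reverse strand) had 22917 reads in WT and held 0.240% in WT (0.184 to 0.312), 0.162% in R and 0.0682% in TKO, and the 3 positions beside it stayed under 1% in all pools.

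On chromosome 11 most deep positions held methylation in WT, R and WWD. Base 3050782 (reverse strand) had 5345 reads in WT and held 59.0% (57.7 to 60.3) in WT, 61.0% in R, 32.5% in WWD, 0.383% in C and 0.0381% in TKO. Base 3050784 on the same strand had 5400 reads and held 0.963% in WT, 1.18% in R and 0.975% in WWD, so CpGs next to each other on the same strand differed sharply. At bases 3050764 and 3050797 WT held 55.8% and 55.2%. From base 3093351 to 3093512, 7 further deep positions held 6.04% to 33.8% in WT and 1.12% to 19.9% in WWD. Over the 23 positions together WT averaged 17.5%, R 18.4%, WWD 6.92%, C 0.255% and TKO 0.185%. Leaving them out moved R minus WT of the near ends by less than its counting error. With each position counted once, 23 of 29974 positions could hardly move it. They were not left out of the value with reads pooled over positions.

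Near-end positions outside the members, those that failed the coverage ratio, held more methylation in WWD. The 12388 near-end positions covered in all pools but with TKO under 0.5 times WT held 15.8% in WT, 17.8% in R, 11.3% in WWD and 1.24% in TKO. Their median coverage was 107 reads in WT, 91 in R, 27 in WWD and 16 in TKO. The rest of the autosomes had 18.8%, 21.0%, 13.5% and 1.36% in that class. The near ends were lower there too, and how coverage and level are linked at such positions was not tested.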

How the data were processed

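Per the labels' protocols, DNA was cut with MspI, fragments of 150 to 250 and 250 to 400 bp were isolated, treated with bisulfite and amplified. Bismark, methylKit and the build mm9 are listed in the submitters' processing notes, with versions not given. Per the file headers, each line of a deposited table is 1 CpG position on 1 strand with its coverage (the count of reads) and 2 percent columns, for C and for T. Of 6 tables, 5 were used; 8 columns, those of a table tied to no sample and the percent of T, were not. Methylated reads were coverage times percent of C, rounded.

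The members and measures were chosen with earlier results of these data known. Levels are means over positions. Matching used chromosome and the exact number of WT rows in the 1 kb tile, with at least 20 positions in the rest. Relative coverage is the median over members of coverage divided by the matched median. Fisher's exact tests (Python 3.11.15, numpy 2.4.6, scipy 1.17.1, numba 0.67.0) were tested on simulated data. Named tiles were the 3 highest in WT, WWD and TKO and the 3 largest R minus WT differences in each direction among tiles with 5 or more members; named positions were the 3 largest called rises and falls of R. Sequences and gene annotation of mm9 were not used here. Alternatives varied coverage minimum, coverage ratio, window, matching, weighting and call limits.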

Additional observations from a re-analysis of the deposited data

How the results depend on the processing

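No paired analysis was possible because the labels name 1 table for both numbered samples of a group, and for the same reason no replicate could be left out. Of 111 alternative values, 49 stayed within counting error or 1.5 times the count and 59 moved further. The other 3 changed sign, all for C, whose difference of 0.00147 points was within counting error: -0.00812 over all common positions, -6.58e-05 with TKO coverage set against C coverage and -0.00435 with equal weight per chromosome. Leaving out chromosomes 14 or 19 or the deepest positions and taking the rest beyond 23 Mb were chosen after seeing the data. Directions of the near-end differences in WT, R and WWD and of R minus WT held under all alternatives run. The cause of each shift was not tested. Near-end minus matched-rest levels in WT, R and WWD were -1.13, -0.940 and -0.410 points with a coverage minimum of 20, -1.22, -1.10 and -0.648 over all common positions, and -1.13, -0.944 and -0.424 with TKO set against C coverage. They were -0.926, -0.733 and -0.334 with a near end of 3 Mb (C 0.0108), -0.986, -0.719 and -0.288 with reads pooled, -1.35, -1.16 and -0.442 without density matching, -2.47, -2.01 and -0.748 with equal weight per chromosome (-1.64, -1.20 and -0.546 without chromosome 14, and C 0.00966), and -1.32, -1.10 and -0.456 with the rest beyond 23 Mb. Without chromosome 19, WT had -1.23 and WWD -0.409. R minus WT was 0.789 points over all common positions, 0.383 with TKO set against C coverage, 0.525 with reads pooled, 0.545 with equal weight and 0.409 without chromosome 19. Its excess over the matched rest was 0.117, 0.267 (reads pooled), 0.463 (equal weight; 0.444 without chromosome 14) and 0.361 (without chromosome 19), the first over all common positions. WWD as a percent of WT was 41.7% over all common positions, 27.8% with TKO set against C coverage, 25.5% with 3 Mb, 26.4% with reads pooled, 24.2% with equal weight and 24.8% without chromosome 19. Relative coverage was 0.969 in TKO over all common positions, and 0.957 in TKO and 0.966 in WT with equal weight. Called members at 10 points numbered 8961 (WT against TKO), 7910 (WWD against WT), 157 (R against WT) and 9026 (C against WT). Of the 157, 95 were higher and 62 lower in R, and 3 of the 7910 were higher in WWD. At 40 points the counts were 3295, 1558, 4 and 3280 in the same order. R against WT had 61 at an adjusted p under 0.05, 35 higher and 26 lower. Shares in the rest were not counted at these limits, so the counts show only how calls depend on the limit. Depth limits single positions, since the largest called rises and falls of R described above rested on 22 to 123 reads per pool.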
